A study of Homo sapiens with 6 samples.

Results

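The phagocyte NADPH oxidase is the enzyme with which monocytes, macrophages and neutrophils make superoxide from oxygen and NADPH. Its genes NCF1, NCF4, CYBA, CYBB and RAC2 were followed in THP-1 cells with and without interleukin-6 (IL-6). These 5 genes were taken by name, and all of them had a value in each of the 6 libraries, as did 17388 of the 60325 genes listed. THP-1 is an established human monocytic leukaemia line, and the series asked which genes IL-6 changes in it. The control group holds 3 libraries, from cells labelled as controls at 6, 24 and 48 h. The IL-6 group holds 3 libraries, from cells given recombinant human IL-6 and collected at 6, 24 and 48 h, the dose not being given in the sources used here. Each combination of agent and time had 1 library. Nothing in the labels tells whether separate cultures were used. The error behind the main p-values is thus how unevenly the IL-6 difference of a gene ran over the 3 times, shrunk toward that of other genes. A real change of that difference with time adds to this error. No spread between replicate cultures is measured, and differences among these 6 libraries may be technical.

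The oxidase is built from parts that stay apart in a resting cell. CYBB encodes gp91phox, the membrane subunit that carries the haems and flavin and moves electrons from NADPH to oxygen. CYBA encodes p22phox, its membrane partner, with which it forms flavocytochrome b558. NCF1 encodes p47phox, the cytosolic organizer that is phosphorylated on activation and carries the cytosolic subunits to the membrane. NCF4 encodes p40phox, a further cytosolic subunit, which binds the phagosomal lipid phosphatidylinositol 3-phosphate. RAC2 encodes a Rac GTPase of blood cells, which joins the complex in its GTP-bound form. Loss of a subunit, most often gp91phox or p47phox, causes chronic granulomatous disease, in which phagocytes ingest microbes but kill many of them poorly.

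NCF1 lies on chromosome 7 near the unprocessed pseudogenes NCF1B and NCF1C, which are nearly identical to it. A known difference between the gene and its pseudogenes is a GT pair at the start of exon 2, whose loss shifts the reading frame. The 3 copies of exon 2 are shown because they hold this difference. They are the GRCh38 sequence at the GENCODE 29 exon positions, 5′ to 3′ on the strand of each gene, with the GT units in capitals.
NCF1, chr7:74777267-74777347, plus strand: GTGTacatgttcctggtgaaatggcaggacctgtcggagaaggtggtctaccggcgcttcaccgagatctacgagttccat
NCF1B, chr7:73223878-73223956, plus strand: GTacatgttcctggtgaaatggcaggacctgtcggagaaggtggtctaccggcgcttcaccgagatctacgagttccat
NCF1C, chr7:75168632-75168710, minus strand: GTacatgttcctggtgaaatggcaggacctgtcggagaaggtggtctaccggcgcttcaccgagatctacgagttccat
The NCF1 exon has 81 bases and starts with 2 GT units. Both pseudogene exons have 79 bases and start with 1 GT unit, and beyond that pair the 3 sequences are the same. Over the whole NCF1 coding transcript of 1396 bases, 72.4% of its windows of 50 bases and 48.3% of its windows of 100 bases also stand unchanged in the NCF1B or NCF1C transcript. Against NCF1C alone the shares were 68.7% and 43.5%, and against NCF1B alone 26.4% and 16.1%. The NCF1B transcript compared has only 930 bases and that of NCF1C 1427, so these shares reflect length as well as likeness. The length given for NCF1B with its deposited values, 1516 bases, is that of another transcript, which was not compared. The values of NCF1, NCF1B and NCF1C are therefore uncertain as values of single genes, since the counting could split or pool their reads.

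The deposited values are log2 values that the authors centred on each gene, so the value 0 is a gene's mean over its libraries and a difference of 1 is 2-fold. The files hold no read counts and the depth is unknown. For most genes a level per transcript length could be recovered in an arbitrary unit from the steps between values. By this level NCF1 averaged 15.7 over the 6 libraries and CYBB averaged 8.61. Their order was not fixed: NCF1 ran from 5.49 to 25.8 and CYBB from 6.09 to 12.7, and in the IL-6 library of 6 h CYBB, at 9.80, was above NCF1. No level was recovered for NCF4, CYBA or RAC2, and genes without one were treated as abundant. The NCF1 level also rests on its length in the files, 2354 bases, which is that of a transcript with a retained intron.

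The subunits differed in how far they varied among the 6 libraries. The log2 range was 2.23 for NCF1, wider than for 94.0% of the 13521 genes tested. It was 1.06 for CYBB, 0.72 for CYBA, 0.68 for NCF4 and 0.42 for RAC2, against a median of 0.76 over the genes tested. RAC2 had a wider range than only 17.2% of genes, so the most and the least variable members stood near opposite ends of the distribution.

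**Figure D1:**
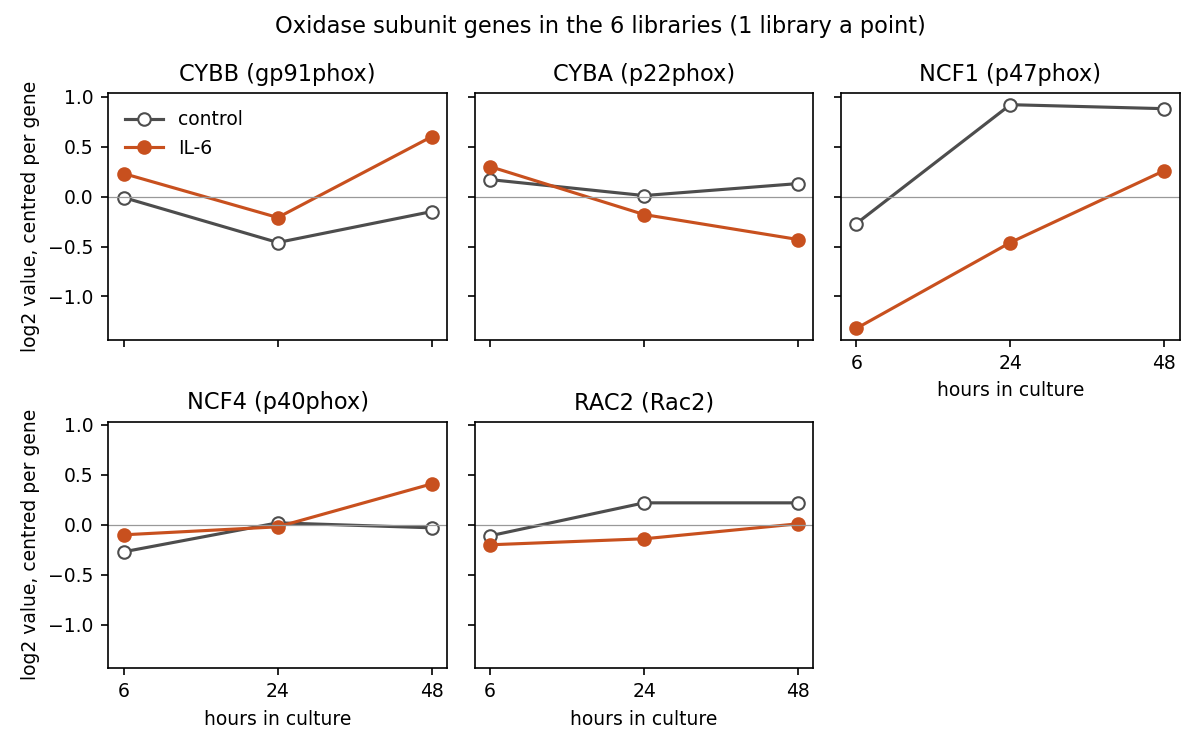
Centred log2 value (vertical axis) of the 5 genes at 6, 24 and 48 h (horizontal axis) in control libraries (open, grey) and IL-6 libraries (filled, orange), with 1 library a point and 1 vertical scale in all panels. NCF1 spans 2.23 log2 units with IL-6 below control at each time, while RAC2 spans 0.42.

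Of the 5 genes, 0 passed the threshold for a change with IL-6. The test was limma over the 3 time-matched pairs, adjusted over all genes tested with a threshold of 0.05, and it called 33 genes, or 0.244%. Without the pair of 6 h it called 117 genes and without the pair of 24 h 17. At an unadjusted p under 0.05, 1 of the 5 genes was lower and 0 were higher, beside 716 lower and 502 higher of the 13521 tested. NCF1 was the gene nearest to the threshold, with lower values under IL-6, and CYBB had higher values under IL-6 at each time without passing. Values from bulk RNA cannot tell fewer cells of a kind from less RNA per cell.

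Among the membrane subunits, the CYBB level was 8.33, 6.09 and 7.54 in the controls of 6, 24 and 48 h, and 9.80, 7.22 and 12.7 in the matching IL-6 libraries. The IL-6 library was the higher of each pair, and the groups overlapped, because the IL-6 library of 24 h lay below 2 of the 3 control libraries. The log2 ratios were 0.23, 0.25 and 0.75, with an SD of 0.29. The limma estimate was 0.41 ± 0.21 (SE, 3 pairs) with an adjusted p of 0.599. CYBB is on the plus strand of chromosome X at 37780059-37813461 (GRCh38).

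CYBA had centred log2 values of 0.17, 0.01 and 0.13 in the controls of 6, 24 and 48 h, and 0.30, -0.18 and -0.43 in the IL-6 libraries. The highest and the lowest of the 6 values were both IL-6 libraries, at 6 and 48 h. Its log2 ratios were 0.12, -0.19 and -0.56, and the limma estimate was -0.21 ± 0.13 with an adjusted p of 0.713. Thus at 48 h the transcripts of the 2 chains of flavocytochrome b558 stood on opposite sides of control, CYBB at 1.68 times and CYBA at 0.68 times the control value, each from 1 pair of libraries. CYBA is on the minus strand of chromosome 16 at 88643289-88651054.

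For NCF1, the cytosolic organizer, the level was 11.3, 25.8 and 25.1 in the controls of 6, 24 and 48 h and 5.49, 9.94 and 16.3 in the IL-6 libraries. IL-6 was below control in each pair, at 0.485, 0.386 and 0.65 times the control level. The groups overlapped across times, since the control library of 6 h lay below the IL-6 library of 48 h. The log2 ratios were -1.05, -1.37 and -0.62, with an SD of 0.38. The limma estimate was -1.01 ± 0.18 (SE, 3 pairs), with an adjusted p of 0.0766 and an unadjusted p of 0.000244. Over 10 alternative settings the adjusted p ran from 0.0339 to 0.998, and it was under the threshold in 1 of them, when the filter on the mean level was raised to 10. NCF1 is on the plus strand of chromosome 7 at 74774011-74789315.

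A fold of 2 at a single time was less rare. NCF1 was at least 2-fold apart at 6 h and at 24 h and was the only one of the 5 genes that was, at any time. At least 2-fold apart were 6.89% of the genes tested at 6 h, 7.07% at 24 h and 6.80% at 48 h. Among the 7583 genes whose mean level was 10 or more or was not recovered, NCF1 included, the shares were 1.19%, 1.69% and 1.74%. Each is a ratio of 2 libraries and has no replicate check.

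NCF4 had centred log2 values of -0.27, 0.02 and -0.03 in the control libraries and -0.10, -0.02 and 0.41 in the IL-6 libraries. The IL-6 library of 48 h stood above the other 5, and its ratio to control was 0.45, against 0.17 at 6 h and -0.05 at 24 h. The limma estimate was 0.19 ± 0.12 with an adjusted p of 0.702. NCF4 is on the plus strand of chromosome 22 at 36860988-36878017. The antisense gene NCF4-AS1 overlaps it and the library kit does not mark strand, so their reads cannot be told apart. NCF4-AS1 itself had a value in 1 of the 6 libraries.

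RAC2 had centred log2 values of -0.11, 0.22 and 0.22 in the control libraries and -0.20, -0.14 and 0.01 in the IL-6 libraries. IL-6 was the lower of each pair, with log2 ratios of -0.09, -0.36 and -0.21 and an SD of 0.13. The groups overlapped at the control library of 6 h. The limma estimate was -0.22 ± 0.11 with an adjusted p of 0.59. RAC2 is on the minus strand of chromosome 22 at 37225270-37244448. RAC1, which encodes another Rac, also had a value in all 6 libraries and no recovered level, as RAC2 did. It gave -0.04 ± 0.10 with IL-6.

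**Figure D2:**
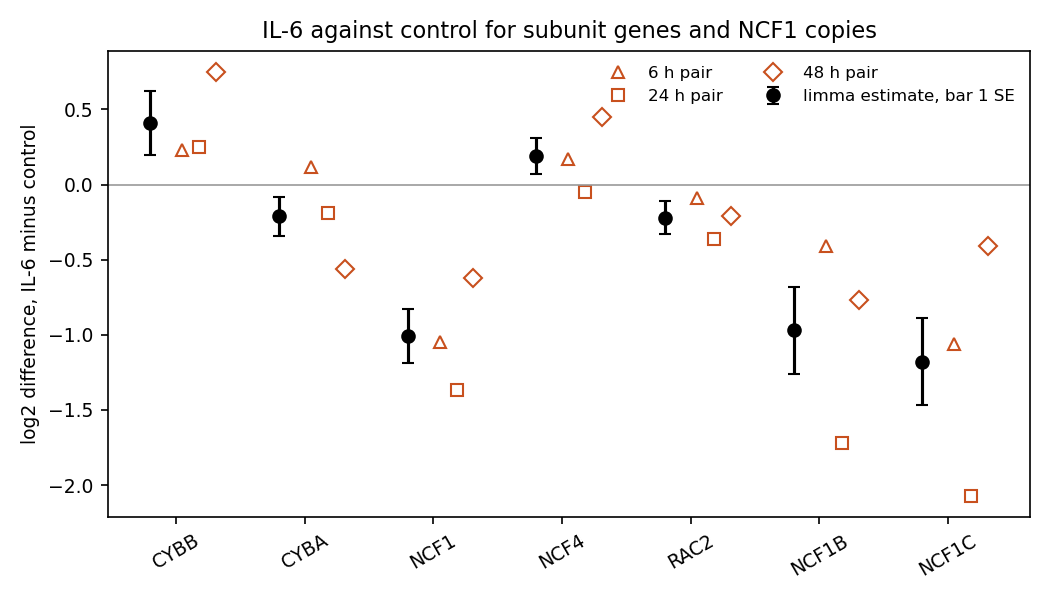
Log2 difference of IL-6 minus control (vertical axis) for the 5 subunit genes and the NCF1 pseudogenes (horizontal axis); open symbols are the single pairs at 6, 24 and 48 h, and black points are limma estimates with bars of 1 SE. NCF1, NCF1B, NCF1C and RAC2 lie below 0 and CYBB above 0 in all 3 pairs, and none of the 7 passes the adjusted threshold of 0.05.

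The 2 pseudogenes had patterns like that of NCF1. The NCF1B level was 3.26, 10.9 and 7.02 in the controls of 6, 24 and 48 h and 2.46, 3.32 and 4.11 in the IL-6 libraries. The NCF1C level was 6.53, 19 and 13 in the control libraries and 3.13, 4.53 and 9.79 in the IL-6 libraries. IL-6 was the lower of each pair for both, and both were highest in the control library of 24 h. Their limma estimates were -0.97 ± 0.29 (adjusted p of 0.328) and -1.18 ± 0.29 (adjusted p of 0.241).

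The levels of NCF1 and its 2 pseudogenes were also summed. If each shared read was counted once, the sum does not depend on how reads were split, apart from the lengths. Whether shared reads were counted once, dropped or counted for each copy is not given in the sources used here. The sum was 21.1, 55.7 and 45.2 in the control libraries and 11.1, 17.8 and 30.2 in the IL-6 libraries. Each of the 3 was lower with IL-6 in each pair, so their sum had to be lower too. The log2 ratios of the sum were -0.93, -1.65 and -0.58. With the levels weighted by length before summing, they were -0.95, -1.58 and -0.59. The share of NCF1 in the sum ran from 46.3% to 55.9% and was lowest in the control library of 24 h. Across the 6 libraries the Pearson r of NCF1 was 0.92 with NCF1B and 0.98 with NCF1C, values that may share reads.

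**Figure D3:**
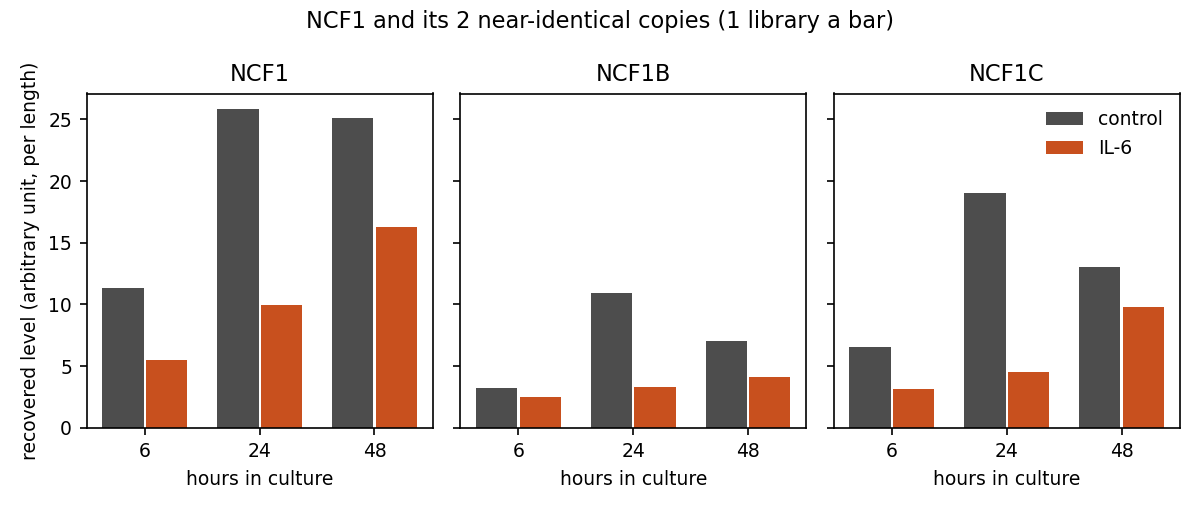
Recovered level per length in an arbitrary unit (vertical axis, from 0) of NCF1, NCF1B and NCF1C at 6, 24 and 48 h (horizontal axis) in control (grey) and IL-6 (orange) libraries, with 1 library a bar. The IL-6 bar is the lower of each of the 9 pairs, and the 3 control bars of 24 h are the highest of their panels.

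Over time, 1 of the 5 genes passed: NCF1 rose between 6 and 48 h. Its limma estimate was 1.36 ± 0.22 (2 libraries at each time), or 2.57-fold, with an adjusted p of 0.0124, in a contrast that called 3.93% of the genes tested. The level at 48 h was 25.1 in the control and 16.3 in the IL-6 library, both above the 11.3 and 5.49 of the libraries of 6 h. NCF1 was higher by a log2 difference of 1.15 in the control libraries and by 1.57 in the IL-6 libraries. The call was kept in 9 of 11 alternative settings. It was lost without the variance trend (adjusted p of 0.208), where the fit called 0 genes in all, and without the IL-6 library of 48 h (1.07 ± 0.27, adjusted p of 0.14), where it called 112 genes. Without the IL-6 library of 6 h it called 182.

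At 24 h the centred NCF1 value of the control was 0.92, close to its 0.88 at 48 h, with log2 differences from 6 h of 1.19 in the controls and 0.86 with IL-6. The limma estimate for 24 against 6 h was 1.02 ± 0.22 with an adjusted p of 0.051, on a background of 1.92%. It passed in 3 of 11 alternative settings, with adjusted p from 0.0255, without the pair of 48 h, to 0.354, without the control library of 24 h. For 48 against 24 h the estimate was 0.34 ± 0.22 with an adjusted p of 0.625, on a background of 0.525%. The control difference in that step was -0.04 and the IL-6 difference 0.72. The pseudogenes had estimates of 0.92 ± 0.36 and 1.32 ± 0.35 for 48 against 6 h, with adjusted p of 0.169 for NCF1B and 0.0736 for NCF1C. The NCF1C value passed without the pair of 24 h (adjusted p of 0.0352) and without the control library of 48 h (0.0152).

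The other 4 genes did not pass in any of the 3 time contrasts with all 6 libraries. For 48 against 6 h the estimates were 0.38 ± 0.15 for NCF4 (adjusted p of 0.174), 0.27 ± 0.13 for RAC2 (0.27), 0.11 ± 0.25 for CYBB (0.84) and -0.38 ± 0.16 for CYBA (0.212). CYBA was the gene with the lowest estimate over the interval in which NCF1 rose. Without the control library of 48 h, CYBA (-0.64 ± 0.15, adjusted p of 0.0329) and NCF4 (0.57 ± 0.15, adjusted p of 0.0438) passed, in a fit that called 1141 genes. The CYBB values were lowest at 24 h in both series, at -0.46 in the control and -0.21 in the IL-6 library. Over all genes tested the median difference was 0.11 for 24 against 6 h, where 220 genes were called higher and 40 lower, and 0.07 for 48 against 6 h, where 339 were called higher and 193 lower. With equal library medians those splits were 139 to 63 and 283 to 290, and NCF1 gave 0.92 and 1.30 in the same contrasts, with adjusted p of 0.0778 and 0.0153.

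An added term compared the IL-6 difference of the 6 h pair with the average of the later pairs, which leaves 1 residual degree of freedom. The estimate was -0.05 ± 0.44 for NCF1, 0.50 ± 0.31 for CYBA and -0.26 ± 0.50 for CYBB. It was -0.02 ± 0.32 for NCF4 and 0.19 ± 0.30 for RAC2. The adjusted p was 1 for each of the 5 genes, and the test called 0.229% of genes. With these errors a difference of the size estimated for CYBA, 0.50, was not detectable. The IL-6 difference at 6 h was not tested against that at 48 h alone.

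The 5 genes did not move as a block across the 6 libraries. The Pearson r was 0.96 between NCF1 and RAC2, -0.37 between NCF1 and CYBB, and 0.32 between NCF1 and NCF4. It was -0.84 between NCF4 and CYBA and -0.35 between the membrane partners CYBA and CYBB. These are descriptions over 6 points that share their agents and times.

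For each gene, the 3 genes with the most similar pattern among the genes tested were taken by Pearson r over the 6 libraries. For NCF1 they were PREX1 (0.995), TMC8 (0.992) and DPF2 (0.992). PREX1 encodes a guanine nucleotide exchange factor that loads Rac with GTP, and it was also in the list of Rac regulators. Its centred log2 values were -0.15, 0.43 and 0.37 in the control libraries and -0.61, -0.24 and 0.19 in the IL-6 libraries, the same order of libraries as NCF1. Its limma estimates were -0.44 ± 0.15 for IL-6 (adjusted p of 0.391) and 0.66 ± 0.18 for 48 against 6 h (adjusted p of 0.0713). The most alike genes were EHBP1 (0.999), TCP11L1 (0.997) and LEMD2 (0.990) for NCF4, and CAPN7 (0.991), PDCD6 (0.991) and TRIM13 (0.988) for CYBA. They were SGF29 (0.992), ARMC2 (0.991) and MIRLET7BHG (0.976) for CYBB, and for RAC2 HNRNPUL1 (0.997) and DDX39B (0.995) are given. They were picked as the highest of 13521 genes over 6 points and are given as descriptions.

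The genes around the oxidase were counted in lists by role. Of 8 small GTPases and accessory genes, all tested, 0 passed for IL-6, with 2 estimates positive, 6 negative and a median of -0.04, beside -0.03 over all genes tested. CYBC1, the chaperone that gp91phox and p22phox need, gave -0.02 ± 0.12. HVCN1, the proton channel that balances the charge moved by the oxidase, was the list's only call over time. It rose by 1.37 ± 0.18 between 6 and 48 h (limma adjusted p of 0.00414) and by 1.14 ± 0.18 between 6 and 24 h (adjusted p of 0.0114). In each contrast it was 1 of 8, beside 3.93% and 1.92% of all genes tested. The first call was kept in 10 of 11 alternative settings, each library left out in turn included, and the second in 7 of 11. That second call was lost without the IL-6 library of 6 h (0.0753), the control library of 24 h (0.128) or the IL-6 library of 24 h (0.0873). Its centred log2 values were -0.66, 0.43 and 0.57 in the control libraries and -1.02, 0.18 and 0.50 in the IL-6 libraries, with both libraries of 6 h below the other 4.

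Most genes of the other NADPH oxidases lacked a value in some of the libraries. Of 10 genes for the other oxidases and their partners, 1 had values in all 6 libraries: NOXA1, an activator subunit used by other oxidases, at a mean level of 6.45. Its IL-6 estimate was -0.38 ± 0.26. NOX3, NOX4, DUOXA1 and DUOXA2 had a value in 0 of the 6 libraries, and the remaining 5 had values in 2 to 5 of them. Without counts, a missing value sets no limit on the level.

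Of 20 Rac regulators, which load Rac with GTP, unload it or hold it in the cytosol, 17 were tested and 0 passed for IL-6 or over time. For IL-6, 15 of the 17 estimates were negative, with a median of -0.23 beside -0.03 over all genes tested, where 7572 of 13521 were negative. For 48 against 6 h, 15 of the 17 were positive, with a median of 0.33 beside 0.07. For 24 against 6 h, 14 were positive, with a median of 0.41 beside 0.11. The control library of 24 h, with the highest median over the genes tested (0.09), enters both this contrast and the IL-6 estimates. All contrasts use the same libraries, so these counts are not independent, here and in the lists below.

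Of the 27 kinases and lipid enzymes upstream of assembly, all tested, 0 passed for IL-6, with 20 negative estimates and a median of -0.14, beside 7572 of 13521 negative and -0.03 over all genes tested. Over time, 2 of the 27, the Src-family kinases FGR and LYN, rose between 6 and 48 h, beside 3.93% of all genes called, higher or lower. Of the 27 estimates 21 were positive, beside 7712 of 13521. FGR rose by 1.30 ± 0.27 (limma adjusted p of 0.0281) and LYN by 0.88 ± 0.17 (0.0236). The median of the list for that contrast was 0.24, beside 0.07. The FGR call was kept in 6 of 11 alternative settings and the LYN call in 7. Both were lost without the control library of 6 h (adjusted p of 0.147 for FGR and 0.0567 for LYN) or the IL-6 library of 48 h (0.232 and 0.215). That of LYN was also lost without the IL-6 library of 6 h (0.211).

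Of 19 transcription factors known to act on the subunit genes, 18 were tested. With IL-6, 1 of the 18 passed, beside 0.244% of all genes: STAT3, the main signal carrier of the IL-6 receptor, rose by 0.78 ± 0.12 (limma adjusted p of 0.0277), a call lost in 6 of 10 alternative settings, among them without the pair of 24 h (0.0714) or of 48 h (0.06). SPI1, which encodes the myeloid factor PU.1, gave -0.07 ± 0.12, and IRF1 gave -0.06. IRF8 gave -0.37 ± 0.11 (adjusted p of 0.33) and CEBPA -0.30 ± 0.13. CEBPB gave 0.39 ± 0.14 with IL-6 (adjusted p of 0.437) and rose by 0.99 ± 0.18 between 6 and 48 h (adjusted p of 0.0173), the list's 1 call in a contrast that called 3.93%. That call was kept in 8 of 11 alternative settings and lost, among others, without the IL-6 library of 6 h (0.169) or of 48 h (0.144). For that time contrast 16 of the 18 estimates were positive, beside 7712 of 13521, with a median of 0.32 beside 0.07.

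PU.1 is known to bind the promoters of NCF1 and CYBB, and the promoters are shown because both genes share its core motif near the start while their IL-6 ratios had opposite signs. They are the 250 bases before the start in RefSeq (GRCh38.p14), 5′ to 3′ on the strand of each gene. Promoter sequences matched for NCF1, CYBB and CYBA among the 5 genes. Capitals mark the motif GAGGAA, searched on both strands, here read as its reverse complement.
NCF1, chr7:74773761-74774010, plus strand: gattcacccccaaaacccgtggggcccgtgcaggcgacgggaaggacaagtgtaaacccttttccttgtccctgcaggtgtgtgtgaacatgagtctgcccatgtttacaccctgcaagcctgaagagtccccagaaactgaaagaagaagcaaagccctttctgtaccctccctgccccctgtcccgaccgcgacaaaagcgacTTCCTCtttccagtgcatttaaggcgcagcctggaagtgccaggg
CYBB, chrX:37779809-37780058, plus strand: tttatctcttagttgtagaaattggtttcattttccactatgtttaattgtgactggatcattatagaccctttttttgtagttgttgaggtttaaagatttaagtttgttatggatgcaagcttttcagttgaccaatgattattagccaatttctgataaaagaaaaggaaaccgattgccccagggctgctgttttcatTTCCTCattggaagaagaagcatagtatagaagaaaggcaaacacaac
The motif stands 40 to 45 bases before the start of NCF1 and 43 to 48 bases before the start of CYBB, on the minus strand in both. It was not found in the CYBA window. The same motif stands in 23.6% of 35116 promoter windows of this length, so its presence alone does not show a site. Binding was not measured in these data. The motif TTCNNNGAA, the core recognised by STAT factors, was in 6.57% of the windows and in 0 of these 3.

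Of 21 genes for handling superoxide and peroxide, 18 were tested and 0 passed for IL-6, with a median of -0.02. SOD1 and SOD2, the cytosolic and mitochondrial superoxide dismutases, gave -0.06 and 0.06, and CAT, catalase, gave -0.12. MPO, which makes hypochlorous acid from the peroxide, gave -0.29 ± 0.30. Between 6 and 48 h the peroxiredoxins PRDX4 and PRDX1, which reduce peroxide, fell by 0.67 ± 0.14 (limma adjusted p of 0.0341) and 0.58 ± 0.13 (0.0447). The PRDX4 call was kept in 5 and the PRDX1 call in 4 of 11 alternative settings. Both were lost without the control library of 6 h (adjusted p of 0.181 and 0.206), the IL-6 library of 6 h (0.182 and 0.326) or the IL-6 library of 48 h (0.197 and 0.236), and that of PRDX1 without the pair of 24 h (0.0595). In that contrast 2 of the 18 genes passed, beside 3.93% of all genes tested. Of the 18 estimates 10 were negative, beside 5806 of 13521. Of 16 genes for NADPH supply, 15 were tested and 0 passed for IL-6. Between 6 and 48 h 1 of the 15 passed, beside 3.93% of all genes tested. MTHFD2, a mitochondrial folate enzyme, rose by 0.99 ± 0.14 between 6 and 48 h (adjusted p of 0.00727), a call kept in 9 of 11 alternative settings and lost without the IL-6 library of 6 h (0.0916).

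**Figure D4:**
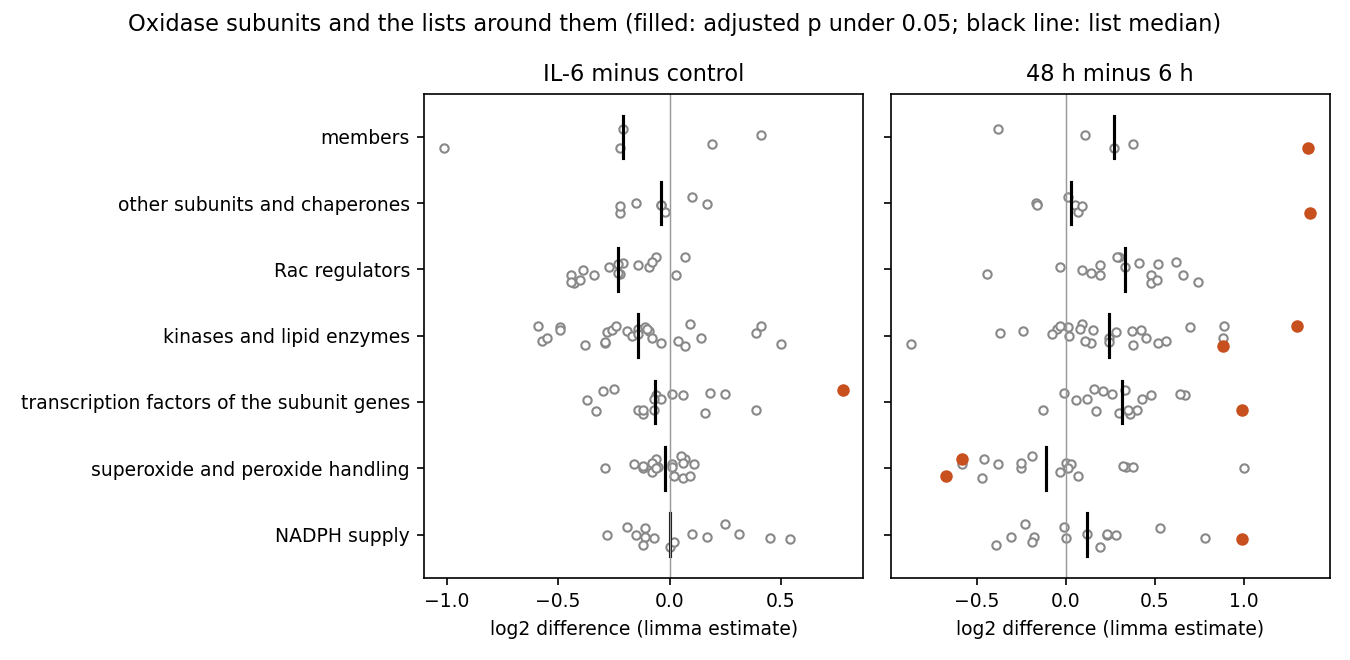
Limma log2 difference (horizontal axis) of each tested gene in the lists by role (rows), for IL-6 minus control and for 48 h minus 6 h; filled orange points have an adjusted p under 0.05 and black lines are list medians. With IL-6 the only filled point is STAT3 at 0.78, while 8 points are filled for 48 h minus 6 h, among them NCF1 at 1.36 and HVCN1 at 1.37.

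The libraries responded to IL-6 in genes known for it: PIM1 rose by 2.67 ± 0.18 (limma adjusted p of 0.000218) and BCL3 by 2.48 ± 0.15 (0.000132), while SOCS3 gave 2.54 ± 0.48 (0.113). All 9 monocyte and THP-1 markers had 6 values and were tested. With IL-6, 3 of their estimates were positive and 6 negative, with a median of -0.22. Of the 9, 1 passed, beside 0.244% of all genes tested: FCGR1A rose by 0.65 ± 0.10 (limma adjusted p of 0.0354). The largest estimate was that of CD14, at 2.07 ± 0.85, which did not pass (adjusted p of 0.68). Its log2 ratios were 0.71, 1.74 and 3.76 at 6, 24 and 48 h. Between 6 and 48 h, where NCF1 rose, 5 were positive and 4 negative, with a median of 0.34. Here too 1 of the 9 passed, beside 3.93% of all genes tested: LYZ, lysozyme, fell by 1.78 ± 0.14 (limma adjusted p of 0.000577). Of markers of other cells, 1 of 6 for T and NK cells was tested, 1 of 3 for B cells, 2 of 5 for neutrophils, 1 of 5 for epithelium and 0 of 3 for fibroblasts. CD3E had a value in 0 libraries, and FCGR3B, CEACAM8 and MMP8 in 1 each. GNLY and COL1A1 had values in 5 libraries. CD79A and KRT18 had 6 values but mean levels of only 0.652 and 0.476, under the filter. The neutrophil marker CXCR2 had a mean level of 42.3. With IL-6, CXCR2 gave -0.53 ± 0.14 and NKG7 0.65 ± 0.14 (limma adjusted p of 0.258 and 0.179). NKG7 and CSF3R rose between 6 and 48 h by 1.01 and 0.83 (adjusted p of 0.0167 and 0.0215). The part of these markers in the NCF1 change was not tested.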

How the data were processed

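A SMART-seq low-input kit amplified the RNA and Nextera XT made the libraries, neither marking strand, per the labels' protocols. The build was GRCh38 (hg38) according to the submitters' processing notes. No aligner, counter, annotation release or normalization is given in the sources used here. The deposited tables hold 1 log2 value per gene, and the authors centred each gene, whose mean over its values is 0 to within 1.8e-07. They hold no counts, so the depth is unknown and no counting interval is given.

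Levels were recovered from the ratios between the values of a gene, which after 1 offset per library are ratios of whole numbers of a step taken as 0.001. Of the genes with 6 values, 90.3% gave a level up to the search limit of 100. The 1683 without one were treated as high. Of 2000 decoys, 147 matched by accident, the lowest at a mean level of 30.4. The lowest levels fell with gene length, as length-normalised values do.

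A count model or limma on log2(value + 1) had been foreseen. As the values were already log2, they went into limma 3.58.1 (R 4.3.3) as deposited, with time and agent as terms. Tested were 13521 genes that had 6 values and averaged a level of 1 or more or had no recovered level. Empirical Bayes shrinkage of the variances was robust and followed level (2 residual and a median of 8.1 prior degrees of freedom). Benjamini-Hochberg adjustment ran over all genes tested. Values after ± are limma SEs. The scripts were run on simulated data. For limma these had independent noise at fitted spreads and IL-6 changes equal at all times. They therefore do not cover changes that vary with time or spread between cultures. All 5 genes passed the filter, NCF4, CYBA and RAC2 as genes without a level.

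The genes and lists were chosen with earlier results of these data known. Named were the 5 genes, the NCF1 pseudogenes, list members that passed in a main contrast (at most 6 a list), a set of oxidase, transcription factor and antioxidant genes whatever their values, and the 3 most similar genes. Some genes of these lists are not reported here. Alternatives were equal library medians, 2 other level filters, log2(level + 1), no variance trend, non-robust shrinkage, no time term and each pair left out. The NCF1 level summed with its pseudogenes, and single libraries left out of the time contrasts, were added after seeing the data. Exon and transcript sequences came from GRCh38 with GENCODE 29, promoters from RefSeq.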

Additional observations from a re-analysis of the deposited data

How the results depend on the processing

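Of 575 recomputed estimates with a test, for 28 single genes, 507 kept their direction and side of the threshold, 44 lost a call, 8 gained one and 16 changed sign. Without the level filter limma called 13 genes for IL-6 (33 in the main analysis), 144 for 24 against 6 h (260), 267 for 48 against 6 h (532) and 10 for 48 against 24 h (71). With non-robust shrinkage it called 12, 147, 255 and 8. Without the variance trend it called 0 genes in each, with 1084, 1914, 2253 and 1246 at an unadjusted p under 0.05, and 0 for the added 6 h term, with 707. There NCF1 kept its 1.36 for 48 against 6 h at an adjusted p of 0.208, so that 0 of the 5 genes were called. The time term is what pairs the IL-6 and control libraries: without it 4 genes were called for IL-6, and NCF1 gave -1.01 ± 0.45 (adjusted p of 0.998). A stricter filter kept only genes averaging a level of 10 or more or without a recovered level. There NCF1 passed for IL-6 (-1.01, adjusted p of 0.0339) and for 24 against 6 h (1.02, adjusted p of 0.026), 1 of the 5 genes in each. With that filter 111 genes were called for 48 against 24 h. NCF1 also passed for 24 against 6 h, as 1 of the 5 genes, with log2(level + 1) at 0.94 (adjusted p of 0.0413). With equal library medians the 6 h term called 20 genes (31). For these changes the cause was not tested.

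Leaving out 1 pair in turn gave 17 to 117 calls for IL-6, where NCF1 gave -1.21 to -0.83. For IL-6, leaving out 1 library is the same as leaving out its pair. For the time contrasts each library compared was also left out alone, a setting chosen after seeing the data, which leaves 1 residual degree of freedom and assumes that its partner varies like the other libraries. With these and the third pair left out, calls numbered 30 to 559 for 24 against 6 h, 112 to 1141 for 48 against 6 h and 9 to 391 for 48 against 24 h. The fewest came without the control library of 24 h, the IL-6 library of 48 h and the control library of 24 h. The most came without the pair of 48 h for 24 against 6 h and without the control library of 48 h for the other contrasts. Of the 5 genes 0 to 1, 0 to 3 and 0 were called. NCF1 gave 0.75 to 1.29 for 24 against 6 h and 1.07 to 1.66 for 48 against 6 h. The added 6 h term could not be fitted with a pair left out.

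Genes at least 2-fold apart numbered 932, 956 and 920 at 6, 24 and 48 h. They numbered 2649, 2642 and 2596 without the filter and 305, 397 and 396 with log2(level + 1). Among genes at a level of 10 or more or without a recovered level they numbered 90, 128 and 132. Estimates near 0 changed sign. With equal library medians CYBC1 gave 0.01 and RAC1 0.00 for IL-6. With 1 pair left out, the IL-6 estimates ran from -0.10 to 0.10 for CYBC1, -0.06 to 0.00 for RAC1, -0.17 to 0.05 for SPI1, -0.17 to 0.03 for IRF1 and -0.13 to 0.03 for SOD1. NCF1 gave 0.02 for the 6 h term with log2(level + 1). With 1 library or pair left out, CYBB ran from -0.14 to 0.37 for 48 against 6 h. For 48 against 24 h, NCF4 ran from -0.00 to 0.38, CYBA from -0.32 to 0.20, RAC2 from -0.03 to 0.18, NCF1B from -0.73 to 0.40 and NCF1C from -0.38 to 0.95. Without counts, the precision that depth sets cannot be given, and low levels such as that of NCF1B rest on fewer reads.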
